A study of Mus musculus with 8 samples.

Results

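The genes described here are the 272 protein-coding mouse genes whose symbol is Zfp followed only by digits, other than Zfp36, and whose mean over all 8 libraries was at least 5 CPM (the count divided by the library's total and scaled to a common total of 1000000). They were chosen from 364 such genes in a table of 55487 genes, by their name and by this level, which is given as a description and was not tested. The choice did not use the difference between the groups, but the family was picked with earlier results of these data known. RNA was measured in 8 hypothalamus samples of C57BL/6J mice, 4 from mice that had spent 2 hours in a chamber at 7% oxygen (hypoxia) and 4 from mice kept in normal air at 21% oxygen (normoxia). No mutation or other agent is named for either group, and the labels state neither age nor sex. Libraries of polyadenylated RNA were made with a strand-specific kit and held 16994473 (normoxia replicate 3) to 21694383 (normoxia replicate 4) counted reads. In a whole piece of tissue, fewer cells of a type and less RNA per cell cannot be told apart.

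Most Zfp-numbered genes code for C2H2 zinc finger proteins, in which each finger folds around a zinc ion held by 2 cysteines and 2 histidines and a row of fingers reads a DNA sequence. Many also carry a KRAB domain at the front end, which binds the corepressor Trim28 and through it the histone methyltransferase Setdb1, so that the bound DNA is packed into silent chromatin. KRAB zinc finger genes form the largest family of transcription factors in mammals, lie in clusters that arose by gene duplication, and are known mainly for silencing retroelements and for guarding imprinted genes. Other Zfp-numbered genes share only the name and act on RNA, ribosomes, ubiquitin or chromosome segregation.

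Across the family, transcripts were more often lower in hypoxia than in normoxia, by small amounts. Of the 272 genes, 16 fell and 2 rose at an adjusted p under 0.05 (edgeR quasi-likelihood test, Benjamini-Hochberg over the 17047 genes tested). These are 5.88% and 0.735% of the family, against 1.23% lower and 0.915% higher among all genes tested. At an unadjusted p under 0.05, 123 of the genes (45.2%) were lower and 8 (2.94%) were higher, against 11.7% and 7.63% of all genes tested. In 82 of them (30.1%) every hypoxia library lay below every normoxia library, and in 5 (1.84%) every hypoxia library lay above, against 7.75% and 5.69% of all genes tested. The log2 fold change, hypoxia over normoxia, was below 0 in 212 genes (77.9%) and above 0 in 60 (22.1%), against 51.8% and 48.2% of all genes tested. Its median was -0.17 (quartiles -0.34 and -0.014), against -0.0085 over all genes tested and -0.0039 over the 11568 other protein-coding genes of at least 5 CPM. It ran from -0.94 (Zfp72) to 0.51 (Zfp395). Of those other protein-coding genes 1.38% were called lower and 0.882% higher, 12.2% were lower and 8.06% higher at an unadjusted p under 0.05, 8.24% were apart downward and 6.22% upward, and 50.9% were below 0 and 49.1% above.

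How many genes were called varied with the libraries used. Without hypoxia replicate 4 the same edgeR test called 55 members lower and 2 higher, and it called 457 (2.65%) and 236 (1.37%) of all genes in that fit. Without normoxia replicate 2 it called 24 members lower and 2 higher, and 346 (2%) and 329 (1.91%) of all genes. Leaving out any one of the other 6 libraries gave 0 calls among the members in either direction, and 2 to 8 lower and 24 to 42 higher among all genes, with 91 to 116 members lower at an unadjusted p under 0.05 and a lowest adjusted p among the members between 0.0639 and 0.101. DESeq2, run on all 8 libraries only, called 58 members lower and 3 higher, and 3.68% and 2.22% of all genes it tested. The median stayed between -0.19 and -0.14 in these 8 fits, and the 18 called genes kept their direction in each.

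**Figure D1:**
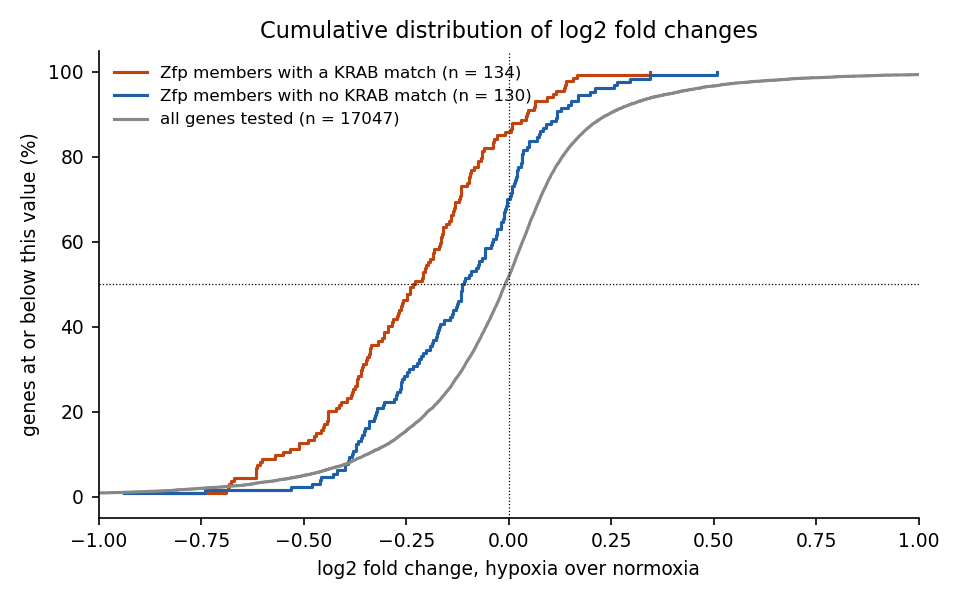
Cumulative share of genes (percent, vertical axis) at or below each log2 fold change of hypoxia over normoxia (horizontal axis, cropped at both ends). Lines stand for 134 members with a KRAB match (median -0.23), 130 members without one (median -0.11) and all 17047 genes tested (median -0.0085). The line of the KRAB members lies furthest to the left over most of the range, and 8 members with a partial match are not drawn.

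Of the 16 genes that fell, 8 matched a KRAB domain in their longest coding sequence, by a pattern of conserved positions. Zfp758 (chr17:22361453-22377281, GRCm38, + strand) codes for a KRAB match and 12 fingers. Its TMM-scaled CPM in replicates 1 to 4 was 7.50, 8.21, 7.78 and 10.3 in hypoxia, against 13.1, 13.5, 13.7 and 13.9 in normoxia. The groups did not overlap, hypoxia replicate 4 was the nearest to normoxia, and the log2 fold change was -0.68 ± 0.11 (SE, n = 4 each, edgeR adjusted p = 0.0225). Zfp661 (chr2:127574662-127587094, - strand), with a KRAB match and 8 fingers, had 6.53, 6.72, 7.44 and 7.29 CPM in hypoxia, against 10.7, 10.6, 10.2 and 9.58 CPM in normoxia. All 4 hypoxia values lay below all 4 normoxia values, and the log2 fold change was -0.55 ± 0.09 (SE, n = 4 each, edgeR adjusted p = 0.0239).

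Zfp866 (chr8:69761326-69791178, - strand) had 21.5, 19.8, 21.3 and 27.9 CPM in hypoxia, against 33.6, 32.8, 36.4 and 35.6 CPM in normoxia. Hypoxia replicate 4 was again the highest of its group, and the groups did not overlap (log2 fold change -0.62 ± 0.10, SE, n = 4 each, edgeR adjusted p = 0.0284). Its exons overlap Atp13a1 on the opposite strand and Gm20422 on the same strand, and 11.3% of its 50-base words also occur in another gene's transcripts, so this value is uncertain. The other 5 KRAB genes that fell were Zfp182, Zfp759, Zfp324, Zfp93 and Zfp14, which the rule for named genes leaves out and which are named after their values were seen. Their log2 fold changes were between -0.39 (Zfp182) and -0.61 (Zfp759), with adjusted p from 0.0366 (Zfp182) to 0.0477 (Zfp14). Zfp93 shares 25.02% of its 50-base words with other transcripts, and its value is uncertain too.

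The 8 other genes that fell had no full KRAB match. Zfp72 (chr13:74369326-74390836, - strand), with 11 fingers, had the lowest log2 fold change of the family. It was measured at 4.55, 4.32, 3.62 and 6.39 CPM in hypoxia, against 8.56, 9.25, 8.90 and 9.44 CPM in normoxia. The hypoxia mean was 0.522 times the normoxia mean and the groups did not overlap (log2 fold change -0.94 ± 0.16, SE, n = 4 each, edgeR adjusted p = 0.0284). Next in size among the called genes was Zfp449 on chromosome X, whose human counterpart carries a SCAN domain, a module through which such proteins pair. It had 6.96, 6.77, 6.33 and 8.99 CPM in hypoxia, against 10.7, 11.2, 13.2 and 13.5 CPM in normoxia. Again no hypoxia library reached the lowest normoxia library, and the log2 fold change was -0.74 ± 0.13 (SE, n = 4 each, edgeR adjusted p = 0.0313).

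Zfp287 (chr11:62700356-62731905, - strand), with a partial KRAB match and 14 fingers, had 12.9, 12.2, 13.2 and 15.97 CPM in hypoxia, against 18.3, 19.8, 20.6 and 20.8 CPM in normoxia (log2 fold change -0.55 ± 0.09, SE, n = 4 each, edgeR adjusted p = 0.0284). Zfp146, a protein of 292 residues that holds 10 fingers and little else, had 25.9, 25.7, 27.0 and 29.1 CPM in hypoxia, against 33.5, 39.0, 34.5 and 34.3 CPM in normoxia (log2 fold change -0.39 ± 0.07, SE, n = 4 each, edgeR adjusted p = 0.0293). In both genes the groups were apart. Zfp35, with 17 fingers, averaged 14.3 ± 1.23 CPM in hypoxia and 19.6 ± 1.14 CPM in normoxia (SD, n = 4 each), and fell by 0.46 on the log2 scale (edgeR adjusted p = 0.0294). Zfp260, described as a partner of GATA factors in heart muscle cells, had the highest level of the genes that fell, with 48.4 ± 4.29 CPM in hypoxia and 61.9 ± 2.33 CPM in normoxia (SD, n = 4 each, log2 fold change -0.35, edgeR adjusted p = 0.0366). Zfp260, Zfp11 (-0.53, adjusted p = 0.0366) and Zfp579 (-0.42, adjusted p = 0.0458) lie outside the rule for named genes and are named after their values were seen.

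The 2 genes that rose have no full KRAB match. Zfp654 (chr16:64780347-64851652, - strand) had 42.5, 42.2, 45.6 and 40.4 CPM in hypoxia, against 35.0, 33.6, 34.2 and 31.7 CPM in normoxia. All 4 hypoxia values lay above all 4 normoxia values (log2 fold change 0.34 ± 0.06, SE, n = 4 each, edgeR adjusted p = 0.0283). Zfp292 (chr4:34803113-34882960, - strand) codes for the longest protein of the family here, with 2698 residues, and is known for its expression in developing brain and for human mutations that cause intellectual disability. It had 70.1, 64.9, 74.8 and 68.0 CPM in hypoxia, against 54.4, 61.9, 51.7 and 55.0 CPM in normoxia. The groups were apart by a small margin, between hypoxia replicate 2 and normoxia replicate 2 (log2 fold change 0.32 ± 0.07, SE, n = 4 each, edgeR adjusted p = 0.0472). Zfp395, whose human counterpart is known to be induced by hypoxia in cultured cells, had the largest positive log2 fold change, 0.51 ± 0.14 (SE), and did not pass (edgeR adjusted p = 0.0943). Its values were 41.8, 36.6, 40.9 and 29.7 CPM in hypoxia, against 25.3, 20.3, 29.5 and 29.6 CPM in normoxia, so that hypoxia replicate 4 and normoxia replicates 3 and 4 nearly met. Zfp787 (log2 fold change 0.26, adjusted p = 0.102) did not pass either.

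**Figure D2:**
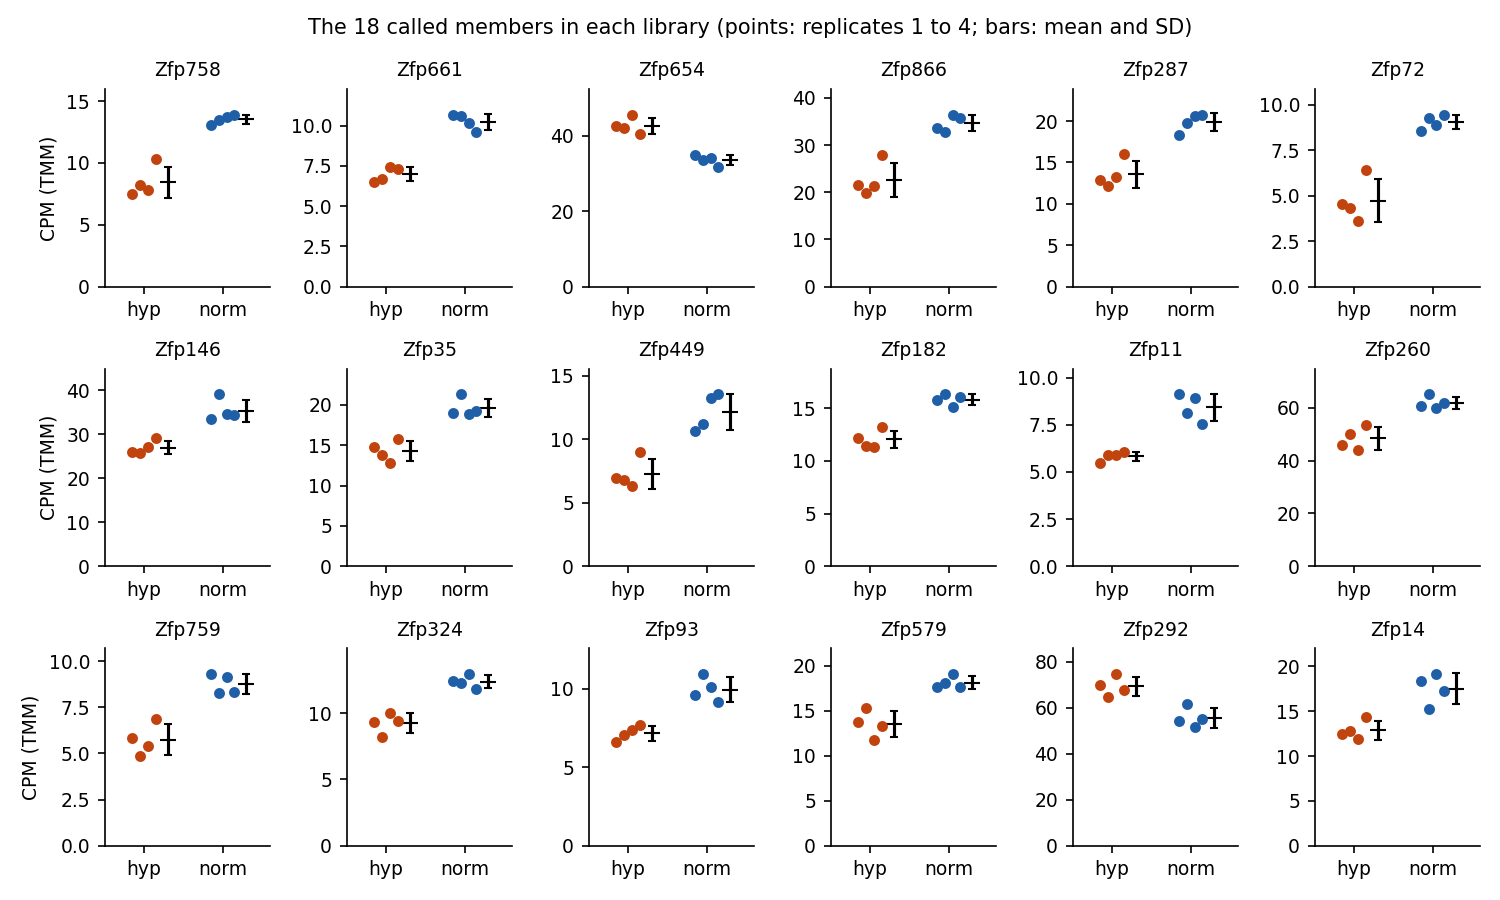
TMM-scaled CPM (vertical axes, from 0) of the 18 genes that passed the test, 1 panel a gene in the order of their p-values, with 4 hypoxia libraries on the left (hyp) and 4 normoxia libraries on the right (norm). Points are single libraries in replicate order, and bars give the mean and SD. The groups do not overlap in any of the 18 panels, and hypoxia replicate 4 is the highest hypoxia point in panels such as Zfp758, Zfp866 and Zfp72.

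Promoter sequences of 3 called genes are shown for their matches to the core that hypoxia-inducible factors bind. They come from RefSeq (GRCm38.p6) and run from 250 bases before to 50 bases after the start, 5′ to 3′ on the gene's own strand. Shown are the fallen gene with the smallest p (Zfp758, chr17:22361213-22361512, + strand), the one with the largest decrease (Zfp72, chr13:74390780-74391079, - strand) and a gene that rose (Zfp292, chr4:34882899-34883198, - strand). Capitals mark ACGTG or GCGTG on either strand, that core, where CACGTG is a match on both strands at once.
Zfp758: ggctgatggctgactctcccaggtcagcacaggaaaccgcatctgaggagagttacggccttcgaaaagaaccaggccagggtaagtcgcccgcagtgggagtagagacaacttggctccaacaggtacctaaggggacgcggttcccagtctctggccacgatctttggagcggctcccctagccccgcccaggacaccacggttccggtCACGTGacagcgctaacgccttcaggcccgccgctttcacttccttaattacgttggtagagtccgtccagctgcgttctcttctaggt
Zfp72: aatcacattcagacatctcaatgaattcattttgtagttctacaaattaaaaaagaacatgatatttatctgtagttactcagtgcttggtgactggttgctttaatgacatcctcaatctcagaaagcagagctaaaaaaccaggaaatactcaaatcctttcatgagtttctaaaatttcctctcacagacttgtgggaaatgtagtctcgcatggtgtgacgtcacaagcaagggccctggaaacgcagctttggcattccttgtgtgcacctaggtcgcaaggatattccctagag
Zfp292: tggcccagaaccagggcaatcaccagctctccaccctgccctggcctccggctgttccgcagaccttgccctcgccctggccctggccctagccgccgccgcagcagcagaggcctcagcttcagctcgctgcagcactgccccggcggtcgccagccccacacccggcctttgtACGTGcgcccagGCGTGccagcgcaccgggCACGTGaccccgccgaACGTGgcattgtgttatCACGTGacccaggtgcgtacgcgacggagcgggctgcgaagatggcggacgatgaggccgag
The window of Zfp758 holds 2 matches (both strands of 1 CACGTG), that of Zfp72 holds 0 and that of Zfp292 holds 7. Of the 202 members with a promoter entry within 500 bases of the annotated start, 111 (55.0%) hold the core, as do 57 of 106 KRAB members (53.8%). Among the called genes with an entry, 3 of 11 that fell and the 1 that rose hold it. The share was 65.6% for 8040 other protein-coding genes of at least 5 CPM and 50.4% for all 16734 promoters. Motif matches are a description of these windows only.

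The coding sequences separate the family into classes. A KRAB match was counted where a stretch kept at least 13 of 14 conserved positions of the KRAB A box, a partial match where it kept 9 to 12, and a finger wherever Cys, 2 to 4 residues, Cys, 12 residues, His, 3 to 5 residues and His followed each other. These are simple patterns read in 1 coding sequence per gene, so divergent or alternatively spliced KRAB domains can be missed and the class with no match may hold some KRAB genes. By them 134 members had a KRAB match, 8 a partial one and 130 none, and the number of fingers ran from 0 to 37 with a median of 11. Of the KRAB members 115 of 134 had a log2 fold change below 0, with a median of -0.23, 8 fell (5.97%, against 1.23% of all genes tested), and 0 rose by edgeR, by DESeq2 or by limma-voom. At an unadjusted p under 0.05, 74 KRAB members (55.2%) were lower and 1 was higher (Zfp39, 0.34), against 11.7% and 7.63% of all genes tested. Of the members with no match 91 of 130 were below 0, with a median of -0.11, and 7 fell (5.38%) and 1 rose (Zfp654). At an unadjusted p under 0.05, 47 of them (36.2%) were lower and 6 (4.62%) were higher. The groups were apart downward in 49 KRAB members (36.6%) and upward in 0, and in 31 (23.8%) and 4 (3.08%) members with no match, against 7.75% and 5.69% of all genes tested.

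By number of fingers, the median log2 fold change was -0.057 in 35 members with 0 to 3 fingers, -0.11 in 78 with 4 to 9, -0.21 in 108 with 10 to 15 and -0.26 in 51 with 16 or more. Among KRAB members it was -0.24, -0.21 and -0.27 for 4 to 9, 10 to 15 and 16 or more fingers. Among members with no match it was -0.057, -0.029, -0.18 and -0.24 in the 4 classes from few to many fingers. So the medians of both classes lay close together above 9 fingers and were furthest apart between 4 and 9. These differences between classes were not tested.

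**Figure D3:**
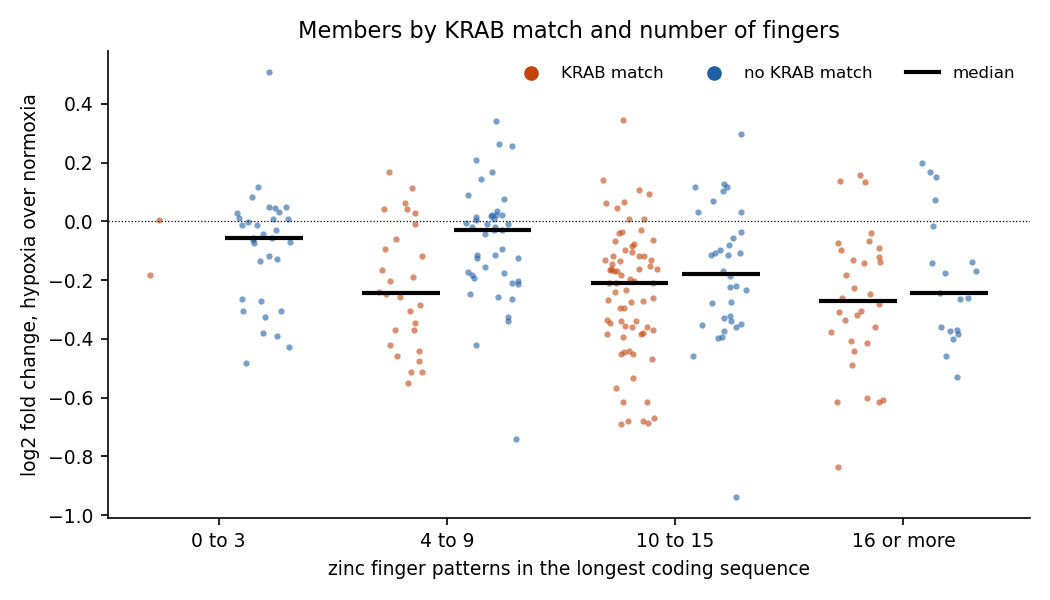
Log2 fold change, hypoxia over normoxia (vertical axis), of each member by number of zinc fingers in its longest coding sequence (horizontal axis, 4 classes), with KRAB members left and members without a match right in each class. Points are genes, bars are class medians, and no median is drawn for the 2 KRAB members with 0 to 3 fingers. KRAB medians lie between -0.21 and -0.27 in the other classes, and those without a match between -0.029 and -0.24.

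Fold changes differed with the level of a gene. KRAB members had a median of 14.7 CPM and members with no match 28.4 CPM. Members at 5 to 10 CPM had a median log2 fold change of -0.30 (63 genes), those at 10 to 20 CPM -0.23 (83), those at 20 to 50 CPM -0.12 (90) and those above 50 CPM -0.020 (36). The other protein-coding genes of the same levels had medians of -0.058, -0.058, -0.026 and 0.027. Within these 4 ranges KRAB members had -0.35, -0.26, -0.15 and -0.044, against -0.28, -0.12, -0.12 and -0.031 for members with no match. Across the 272 members, which share the same 8 libraries, Spearman's rho between level and log2 fold change was 0.370, and across the other protein-coding genes it was 0.219. For the share of G and C in the longest transcript of each gene rho was 0.181 across the members. Other protein-coding genes whose G and C share lay between the members' quartiles (40.7 to 51.4%) had a median of -0.0064.

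At the edge of the rule, Zfp786 and Zfp873 had mean levels of 5.02 and 5.07 CPM and log2 fold changes of 0.11 and -0.60, and Zfp976 and Zfp784 just below it had 4.91 and 4.90 CPM and log2 fold changes of -0.10 and -0.16. Of the 92 Zfp-numbered genes under the level, 56 were tested and 46 of these had a log2 fold change below 0, with a median of -0.26. Of the 56, 2 were called lower (3.57%), against 1.23% of all genes tested. Zfp58 (-1.04, edgeR adjusted p = 0.0213) and Zfp493 (-1.004, edgeR adjusted p = 0.0465) fell among them, both named after their values were seen. Both match a KRAB domain. Zfp58 had 1.40, 1.76, 1.88 and 2.25 CPM in hypoxia, against 3.76, 3.51, 3.73 and 4.00 CPM in normoxia, a low level at which counting error is a larger part of the spread.

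By role, 7 members had been listed for the control of imprints or retroelements, of which Zfp668 is not certain to have that role. Of these 6 had a log2 fold change below 0, against 77.9% of the family and 51.8% of all genes tested. At an unadjusted p under 0.05, 5 were lower, against 45.2% of the family and 11.7% of all genes tested. Calls numbered 0 of 7 by edgeR, 1 by limma-voom and 2 by DESeq2, all lower. Over all genes 1.23% were called lower by edgeR, 250 of 17047 by limma-voom and 3.68% by DESeq2. Without Zfp668, 5 of 6 were below 0 and 4 were lower at an unadjusted p under 0.05. Zfp568, which represses a placental promoter of Igf2, had 4.64, 3.78, 3.43 and 5.34 CPM in hypoxia, against 7.15, 6.54, 7.47 and 6.403 CPM in normoxia (log2 fold change -0.68 ± 0.15, SE, n = 4 each, edgeR adjusted p = 0.0538). Zfp809, which recognises the primer binding site of murine leukaemia virus in embryonic stem cells, had 6.19, 6.93, 6.96 and 9.53 CPM in hypoxia, against 10.9, 10.4, 10.2 and 10.7 CPM in normoxia (log2 fold change -0.51 ± 0.13, SE, n = 4 each, edgeR adjusted p = 0.0804). Both genes were apart between the groups and did not pass. The pair that keeps methylation at imprinted regions stood at different levels. Zfp445 averaged 216 ± 4.84 CPM in hypoxia and 234 ± 13.4 CPM in normoxia (SD, n = 4 each, log2 fold change -0.12, edgeR adjusted p = 0.241). Zfp57 averaged 27.5 ± 1.95 CPM in hypoxia and 27.4 ± 3.81 CPM in normoxia (SD, n = 4 each, edgeR adjusted p = 0.979).

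Among 9 members that act on RNA or ribosomes the median was -0.057 and 6 were below 0. At an unadjusted p under 0.05, 3 were lower, against 45.2% of the family and 11.7% of all genes tested. There were 0 calls by edgeR and limma-voom. DESeq2 called 1 lower, against 3.68% of all genes it tested. Zfp638, a nuclear protein that binds RNA and DNA, had 107, 104, 108 and 125 CPM in hypoxia, against 135, 155, 134 and 125 CPM in normoxia, where hypoxia replicate 4 and normoxia replicate 4 met (log2 fold change -0.30, edgeR adjusted p = 0.0829). Zfp830, a splicing-associated factor, had a log2 fold change of -0.38 (edgeR adjusted p = 0.122). Zfp106, an RNA-binding protein needed for motor neurons and the most abundant member by CPM, averaged 273 ± 4.12 CPM in hypoxia and 267 ± 9.14 CPM in normoxia (SD, n = 4 each, log2 fold change 0.029 ± 0.041, SE, edgeR adjusted p = 0.745).

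Of 4 members that had been listed for roles in ubiquitin, SUMO or mitosis, 1 was below 0. That was Zfp207, which binds microtubules and kinetochores, with 121, 125, 120 and 135 CPM in hypoxia, against 142, 180, 144 and 141 CPM in normoxia. Its groups were apart and the value of normoxia replicate 2 stood above the others (log2 fold change -0.27 ± 0.08, SE, n = 4 each, edgeR adjusted p = 0.122). Zfp451, a SUMO ligase, had a log2 fold change of 0.08 (edgeR adjusted p = 0.383). Of 12 members known from neural development 6 were below 0 and the median was -0.011. Zfp292 rose, as described, and Zfp644 had a log2 fold change of -0.20 (edgeR adjusted p = 0.0975).

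The 13 members that act as promoter or chromatin factors had a median of -0.019, and 9 were below 0. At an unadjusted p under 0.05, 4 were lower and 1 was higher, against 11.7% and 7.63% of all genes tested. There were 0 calls by edgeR and limma-voom. DESeq2 called 2 lower, against 3.68% of all genes it tested. Zfp110, a partner of the p75 neurotrophin receptor, had 16.8, 17.9, 17.4 and 18.1 CPM in hypoxia, against 21.4, 20.6, 20.5 and 21.0 CPM in normoxia. These groups were apart, and the log2 fold change was -0.25 ± 0.06 (SE, n = 4 each, edgeR adjusted p = 0.0610). Zfp384, a nuclear matrix protein, had a log2 fold change of -0.21 (edgeR adjusted p = 0.0697), overlaps a transcript on the opposite strand and shares 15.9% of its 50-base words.

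Per kilobase of exon, the highest levels belonged to Zfp706 (37.6 CPM per kb), Zfp365 (36.4), Zfp445 (30.3), Zfp869 (26.2), Zfp106 (25.9) and Zfp207 (20.8). Zfp706, a small protein known from embryonic stem cells, averaged 188 ± 5.09 CPM in hypoxia and 187 ± 5.02 CPM in normoxia (SD, n = 4 each). Zfp365, known as a Disc1-binding protein of the nervous system, had 188, 168, 191 and 203 CPM in hypoxia, against 185, 245, 155 and 181 CPM in normoxia. The normoxia values of Zfp365 enclose all the hypoxia values, and its log2 fold change was -0.031 ± 0.125 (SE, edgeR adjusted p = 0.921). Zfp869, with a KRAB match and 13 fingers, had a log2 fold change of 0.01 (edgeR adjusted p = 0.953). The largest spread within groups belonged to Zfp831, Zfp551 and Zfp92, none of which passed (edgeR adjusted p = 0.543, 0.402 and 0.574).

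In the genome the members lie in groups. With gaps under 1 Mb counted as one run, 24 runs of 3 or more held 155 members and 89 genes stood alone. Chromosome 7 held 72 members, of which 61 had a log2 fold change below 0 (median -0.27) and 6 fell (8.33%). All 15 members on chromosome 13 were below 0 (median -0.26, 2 fell). Over the family 77.9% were below 0 and 5.88% fell, against 51.8% and 1.23% of all genes tested. Differences between chromosomes were not tested. The 4 members on chromosome 12 had a median of 0.10. The run at chr7:29768552-30169750 held 13 members within 0.401 Mb. All 13 had a log2 fold change below 0. At an unadjusted p under 0.05, 11 were lower, against 45.2% of the family and 11.7% of all genes tested. Zfp14, Zfp260 and Zfp146 fell. The others went from -0.69 (Zfp790, adjusted p = 0.0516) to -0.0089 (Zfp382, adjusted p = 0.971), so neighbours in 1 run differed widely.

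The largest run, at chr17:21008903-23599487, held 18 members, 16 of them with a KRAB match. Of these 18 genes 16 had a log2 fold change below 0, and the median was -0.23. At an unadjusted p under 0.05, 9 were lower, against 45.2% of the family and 11.7% of all genes tested. Zfp758 fell. The 5 next by p were Zfp229 (-0.49), Zfp983 (-0.38), Zfp40 (-0.34), Zfp944 (-0.27) and Zfp942 (-0.21), with edgeR adjusted p from 0.0716 to 0.0984. Zfp944 and Zfp983 share 10.4% and 12.5% of their 50-base words with other transcripts. Over the whole family, 28 members share more than 10% and had a median of -0.24, and the other 244 had a median of -0.16. The 67 members whose exons overlap a gene on the opposite strand had a median of -0.17, as did the 205 without such overlap. By edgeR 1 of the 67 fell (1.49%) and 15 of the 205 (7.32%), against 1.23% of all genes tested. At an unadjusted p under 0.05, 44.8% and 45.4% were lower. The difference between these sets was not tested.

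The partners of KRAB proteins were read from a list of 21 corepressors and silencing factors, of which 20 were tested. Of these 17 had a log2 fold change below 0, with a median of -0.070. By edgeR 1 fell and 0 rose, against 1.23% and 0.915% of all genes tested. At an unadjusted p under 0.05, 6 were lower and 0 higher, against 11.7% and 7.63% of all genes tested. Setdb1, which methylates lysine 9 of histone H3, had 48.6, 46.3, 46.4 and 50.1 CPM in hypoxia, against 54.0, 62.6, 56.2 and 59.6 CPM in normoxia, and the groups were apart. Its log2 fold change was -0.28 ± 0.06 (SE, n = 4 each, edgeR adjusted p = 0.0458), and it overlaps Cers2 and Gm37500 on the opposite strand. Trim28, the protein that KRAB domains bind, averaged 128 ± 2.85 CPM in hypoxia and 128 ± 10.0 CPM in normoxia (SD, n = 4 each). Its log2 fold change was 0.00 ± 0.06 (SE). Morc3 (-0.25, edgeR adjusted p = 0.0523) and Fam208a, a subunit of the HUSH silencing complex (-0.22, edgeR adjusted p = 0.0638), did not pass.

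The family's level differed between libraries of the same group. For each library the deviation of each gene's log2 CPM (pseudocount 0.5) from its mean over all 8 libraries was taken, and the median over members was -0.087, -0.14, -0.084 and 0.016 in hypoxia replicates 1 to 4, against 0.039, 0.15, 0.081 and 0.068 in normoxia replicates 1 to 4. The groups did not overlap, by a margin smaller than the spread within either group, because hypoxia replicate 4 stood near normoxia replicate 1. For KRAB members alone the medians were -0.14, -0.18, -0.12 and 0.030 in hypoxia, against 0.090, 0.15, 0.12 and 0.11 in normoxia. For members with no match they were -0.029, -0.10, -0.061 and 0.0065 in hypoxia, against 0.0050, 0.13, 0.057 and 0.028 in normoxia, and these groups overlapped.

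Hypoxia replicate 4 was the highest hypoxia library in 163 of the 272 genes, and normoxia replicate 2 the highest normoxia library in 128. The members' share of all counts was 0.750 ± 0.0279% for the hypoxia libraries and 0.826 ± 0.0259% for the normoxia libraries (SD, n = 4 each). Markers of the hypothalamus, of tissue next to it and of other cell types also varied among the libraries. The 16 hypothalamus markers summed to 787 to 919 CPM in hypoxia and 469 to 945 CPM in normoxia, with Kiss1 at 0 in every library. The sum of 469 CPM was that of normoxia replicate 2. In that library Otp (13.7 CPM) and Pmch (160 CPM) were the lowest of all 8 libraries, while Crh and Npy were the highest. Of the 15 tested, 13 had a log2 fold change above 0 (median 0.23), opposite in sign to most members, and 0 were called or reached an unadjusted p under 0.05. Slc17a7, which marks glutamatergic neurons of cortex and hippocampus, had 34.5, 80.3, 7.92 and 46.2 CPM in hypoxia, against 70.1, 384, 17.7 and 26.0 CPM in normoxia, and normoxia replicate 2 was thus the highest for it as well. The summed level of 8 cortex and hippocampus markers was 56.1 to 136 CPM in hypoxia and 85.2 to 457 CPM in normoxia, with 6 of the 7 tested below 0. The 1 called lower was Neurod1 (log2 fold change -1.46, edgeR adjusted p = 0.0148). It had 1.30 to 2.15 CPM in hypoxia, against 4.04 to 6.37 CPM in normoxia. Bhlhe22 (-0.66, edgeR adjusted p = 0.0923) did not pass, though its groups were apart as well. The 8 thalamus markers summed to 600 to 726 CPM in hypoxia and 559 to 954 CPM in normoxia. Of these 7 of 8 were below 0 (median -0.33), with 1 lower at an unadjusted p under 0.05. Normoxia replicate 1 was the highest of all libraries for Prkcd, Rora, Tcf7l2 and Lef1. Prkcd stood at 133 CPM there, against 19.1 to 25.4 CPM in the other normoxia libraries. The members' median deviation in normoxia replicate 1 was 0.039, the lowest of normoxia. The 8 striatum markers summed to 776 to 1253 CPM in hypoxia and 450 to 1169 CPM in normoxia, with 8 of 8 above 0. Oligodendrocyte markers summed to 6706 to 9910 CPM in hypoxia and 6483 to 11548 CPM in normoxia, with 7 of 8 below 0 (median -0.13). Endothelial markers summed to 249 to 285 CPM in hypoxia and 261 to 313 CPM in normoxia, with 5 of 8 below 0 and 3 above. At an unadjusted p under 0.05, 3 were lower and 1 was higher (Ly6c1, 0.19), against 11.7% and 7.63% of all genes tested. The 1 called was Slco1a4, a transporter of the blood-brain barrier, which was lower (-0.48, edgeR adjusted p = 0.0369). Pituitary markers summed to 9.38 to 56.3 CPM in hypoxia and 11.5 to 85.0 CPM in normoxia. Of the 4 tested 3 were below 0 and 0 were called. Among them Prl and Gh were highest in normoxia replicate 2 (40.4 and 38.9 CPM) and next in hypoxia replicate 4 (28.6 and 11.7 CPM). Elsewhere they stood at 0.0574 to 4.98 and 0 to 1.65 CPM. Of 8 neuron, 8 astrocyte and 8 microglia markers, 3, 4 and 5 were below 0 and 0 were called. The part of tissue and cell type makeup in the members' values was not tested. Without normoxia replicate 2 the members' median was -0.15, and without it and hypoxia replicate 4 it was -0.18. The fit without both called 72 members lower and 3 higher, and 4.31% and 2.66% of all genes. Hypoxia replicate 4 stood nearest to normoxia in the members' own levels, so calls gained without it are no added support.

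**Figure D4:**
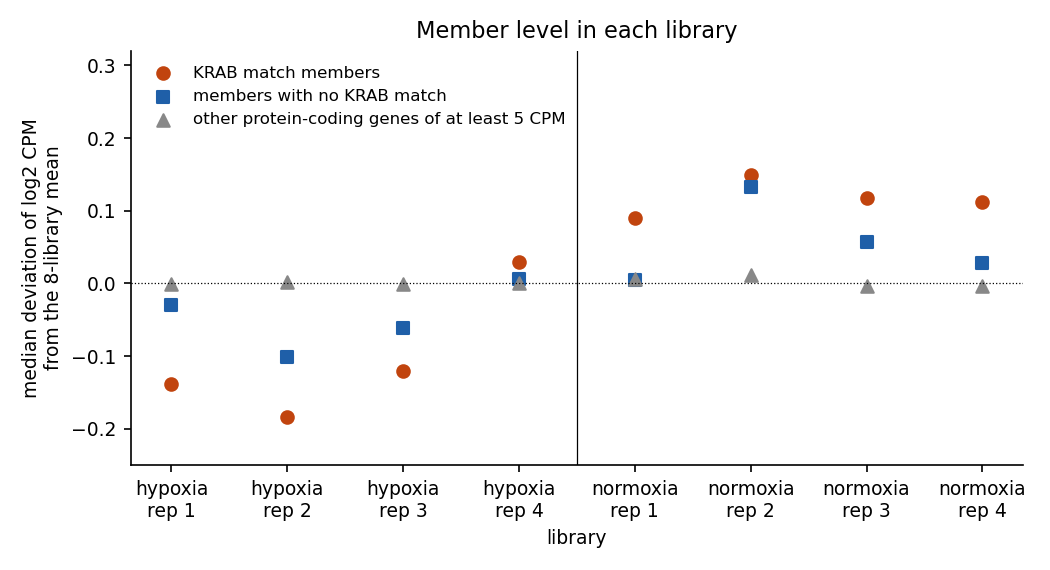
Median deviation of log2 CPM from the mean of all 8 libraries (vertical axis) in each library (horizontal axis, hypoxia left and normoxia right), for members with a KRAB match, members without one and other protein-coding genes of at least 5 CPM. KRAB members are below 0 in 3 of 4 hypoxia libraries, at 0.030 in hypoxia replicate 4, and between 0.090 and 0.15 in normoxia. The other protein-coding genes lie near 0 in all 8 libraries.

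**Figure D5:**
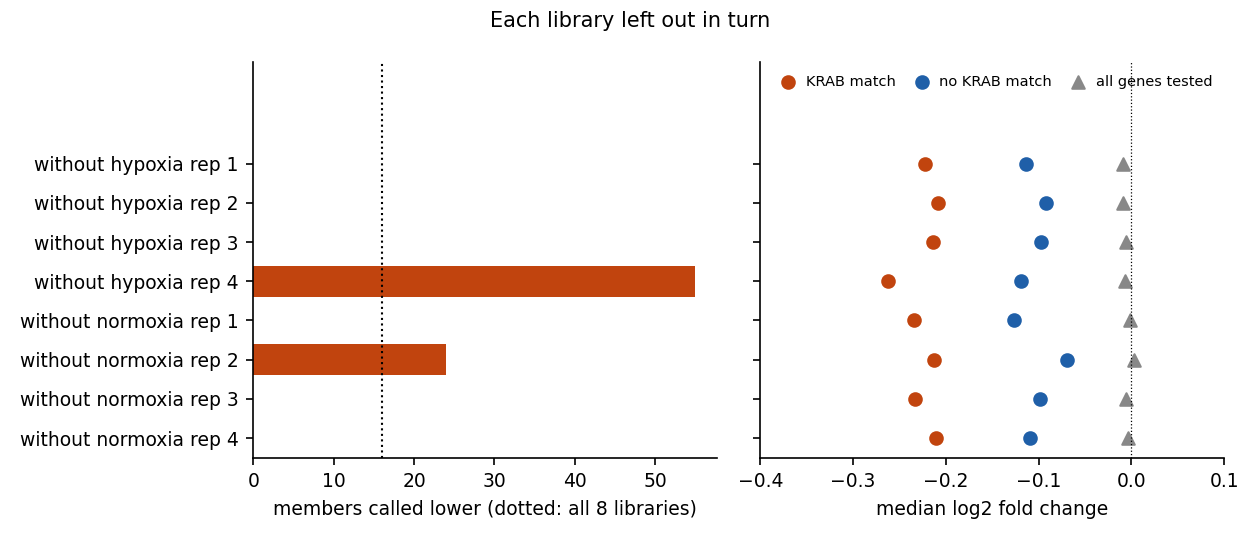
Each library left out in turn (rows), with the number of members called lower by edgeR at an adjusted p under 0.05 (left) and the median log2 fold change of KRAB members, members without a match and all genes tested (right). The dotted line on the left marks the 16 called with all 8 libraries. Calls go from 0 in 6 fits to 55 without hypoxia replicate 4, and the KRAB median stays between -0.26 and -0.21.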

How the data were processed

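The authors deposited raw read counts per Ensembl gene, 1 column for each library, matched to the samples by the short names in the labels. The tools listed in the submitters' processing notes are featureCounts, DESeq2, SAMtools, Trimmomatic, HISAT and HISAT2 (2.0.4), with mm10 as the build. No source used here states the annotation or how counting treated strand and reads with several map positions, so genes with near-identical copies or antisense partners are uncertain. The design text calls the libraries biological replicates.

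Gene types, coordinates and coding sequences came from GENCODE M21 (GRCm38, the assembly of mm10), which matched 55227 of 55487 genes. Counts were tested with edgeR 4.0.16 (R 4.3.3, filterByExpr with a minimum count of 10 and total of 15, TMM, quasi-likelihood F test, group as the only term). An adjusted p under 0.05 over 17047 genes was a call, and the SE is the log2 fold change over the root of F. CPM per library are TMM-scaled, while the rule for members used CPM of the column sum. DESeq2 1.42.0, limma 3.58.1 (voom), other scalings, filters and member levels, a replicate block and each library left out were the alternatives. The fit was tested on simulated data.

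The members and gene lists were chosen with earlier results of these data known. Genes named are the called members (up to 8 for each direction), the 4 smallest p each way, the 6 highest CPM per kb, 2 on each side of 5 CPM, the 3 largest spreads, 2 of each role list, up to 6 of the largest genomic run, the 3 partners with the smallest p, Trim28 and Setdb1.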

Additional observations from a re-analysis of the deposited data

Results flagged for a closer look

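Each of 50 named genes was checked in both groups for a library that stood far from the other 3 of its group (Dixon's test, 95% level). Of these 100 groups 8 had one. Chance alone gives about 1 in 20 for genes picked without regard to their spread. Zfp831 and Zfp551, both among the 8, were named for their large spread within groups, so these rates are not a like comparison. Values are TMM-scaled CPM.

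Normoxia replicate 2 was the high one in 4 cases. Zfp831 stood at 26.5 CPM there, against 7.64 to 10.7 in the other normoxia libraries. Zfp207 stood at 180 CPM, against 141 to 144. Trim28 stood at 143 CPM, against 122 to 124. Zfp35 stood at 21.3 CPM, against 18.9 to 19.3. The same library had the highest Slc17a7.

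Hypoxia replicate 4 was the high one in 3 cases. Zfp551 stood at 7.54 CPM there, against 4.00 to 4.55 in the other hypoxia libraries. Zfp784 stood at 5.79 CPM, against 4.11 to 4.37. Zfp40 stood at 24.4 CPM, against 19.5 to 20.3. In the last case Zfp983 was low in hypoxia replicate 3, at 14.3 CPM against 18.2 to 18.3. The cause of these deviations was not tested.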

How the results depend on the processing

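The members' median log2 fold change stayed below 0 under every alternative run, from -0.19 to -0.13, and the 18 called genes kept their direction in each of 16 other fits. The number of calls did not stay. Genes called higher in hypoxia and genes called lower in hypoxia numbered 362 and 600 with DESeq2, with 58 members called lower in hypoxia. Scaling by library totals gave 342 genes called lower in hypoxia, 29 of them members, and moved the median of all genes to -0.034. An adjusted p under 0.1 gave 384 higher and 674 lower (members lower 62). Leaving out hypoxia replicate 4 and normoxia replicate 2 together gave 456 higher and 739 lower (members lower 72). Hypoxia replicate 4 stands out by the members' own levels, so this count is no added support. With no filter on low counts 1 of the members called higher in hypoxia was left, and with a member level of 10 CPM 10 were called lower. Leaving out each library in turn gave 24 to 329 genes higher, 2 to 457 lower, 0 to 2 members higher and 0 to 55 lower. Causes of these shifts were not tested.

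The labels do not say whether the replicate numbers pair the samples. Deviations of same-numbered libraries correlated weakly, at 0.0646, -0.129, 0.0558 and -0.0216, which does not settle whether samples were paired. The fit with the replicate block called 20 genes higher and 1 lower, and 0 members either way, with 105 members lower and 6 higher at an unadjusted p under 0.05.

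Of 898 values of named genes under the alternatives, 691 kept direction and side of the threshold, 149 lost the call, 43 gained one and 15 changed sign, in 5 genes near 0 or with a wide spread. The log2 fold change of Zfp831 was 0.092 without normoxia replicate 2 and reached -0.62 without other single libraries. The log2 fold change of Trim28 was -0.025 with library totals and ran from -0.018 to 0.062 with single libraries left out, at -0.012, -0.0025, -0.018, -0.0088 and -0.012 without hypoxia replicates 1 and 4 and normoxia replicates 1, 3 and 4. The log2 fold change of Zfp365 was 0.069 with both doubted libraries left out and ran from -0.114 (without normoxia replicate 3) to 0.114 (without normoxia replicate 2), with 0.021 without hypoxia replicate 2. The log2 fold change of Zfp869 was -0.017 with library totals and ran from -0.031 (without normoxia replicate 1) to 0.039, with -0.017 without hypoxia replicate 3. The log2 fold change of Zfp706 was -0.012 with library totals and ran from -0.0048 (without hypoxia replicate 4) to 0.037.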

Other observations

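C2H2 genes outside the name rule showed values of a like size. Of 151 other protein-coding genes of at least 5 CPM with 4 or more fingers, 111 had a log2 fold change below 0 (median -0.14). Of them 10 fell (6.62%) and 1 rose (0.662%), against 1.23% and 0.915% of all genes tested. These called genes are named after their values were seen. Rlf, a chromatin regulator, rose, with 62.4, 56.7, 71.4 and 54.0 CPM in hypoxia, against 37.7, 41.0, 36.2 and 37.6 CPM in normoxia (log2 fold change 0.68 ± 0.09, SE, n = 4 each, edgeR adjusted p = 0.0113). Ctcf, which shapes chromatin loops, had 64.6, 58.2, 62.7 and 61.9 CPM in hypoxia, against 71.3, 77.4, 73.4 and 71.1 CPM in normoxia (log2 fold change -0.24 ± 0.05, SE, n = 4 each, edgeR adjusted p = 0.0435). In both genes the groups were apart. Others that fell were Zkscan3 (-0.56, adjusted p = 0.0298), Prdm2 (-0.35, adjusted p = 0.0395) and Hinfp, an activator of histone H4 genes (-0.28, adjusted p = 0.0400), all by edgeR.

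Of 22 Zfp genes with a letter after the number, 17 were below 0 (median -0.17). Of them 5 fell (22.7%, against 1.23% of all genes tested), among them Zfp874b (-0.73) and Zfp322a (-0.63). The 36 Zbtb genes had a median of -0.13, 10 Zkscan genes -0.073 and 9 Zscan genes -0.39. The families share these 8 libraries with the members, and differences between families were not tested.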
